A study of Homo sapiens with 6 samples.

Results

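The genes described here encode the NF-κB transcription factor and the proteins that restrain it in K562 cells, a BCR-ABL1-positive line established from chronic myeloid leukemia (CML) and used as a model of that disease. They were chosen by symbol and are 10 of the 24960 genes in the count table: the 5 subunits NFKB1, NFKB2, REL, RELA and RELB, the 3 classical inhibitors NFKBIA, NFKBIB and NFKBIE, and the 2 feedback genes TNFAIP3 and BIRC3. RNA sequencing had been performed on 3 control libraries and 3 libraries from cells exposed to hyperoside, a flavonol glycoside of Hypericum and Crataegus plants. The concentration was 2 mM. The labels give no exposure time for the RNA, and do not say whether the replicates came from separate cultures, so the p-values measure the spread between these libraries, which may be technical. All 10 genes passed the filter on low counts and were tested among 15095 genes.

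NF-κB acts as dimers of Rel-family subunits. RELA, REL and RELB carry transactivation domains, whereas NFKB1 and NFKB2 encode the p105 and p100 precursors that are processed to p50 and p52 and that, unprocessed, hold other subunits in the cytoplasm. In the canonical pathway the IκB kinase complex phosphorylates the IκB inhibitors, which are then degraded, and the released dimers enter the nucleus and bind κB motifs. In the non-canonical pathway NIK, the product of MAP3K14, drives the processing of p100 for RELB dimers. Several of the genes that NF-κB induces, among them NFKBIA and TNFAIP3, encode proteins that switch it off again. RNA levels do not report dimer composition, processing or location.

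The κB consensus motif was searched on both strands of the 250 bases before each RefSeq start site (GRCh38.p14), with overlapping matches counted once. RefSeq windows were at hand for 8 of the 10 genes, and 7 of these 8 held a match in at least 1 window, against 14.9% of the 11721 tested genes that had a window. Over all 34943 windows the share with a match was 9.95%, and 0.79% held 2 or more. The 10 genes were chosen for their place in this pathway and include genes that NF-κB induces, so this comparison is a description and no test. The 8 genes had 13 windows in all, and a gene with more windows has more places for a match. A match is a description of letters and not a bound site. The stretches of NFKB1, NFKB2 and NFKBIA are shown because these 3 genes kept their call in every alternative run. Each stretch is written 5′ to 3′ on the strand of its gene and leaves out the exons of that gene, and capitals mark the match.
NFKB1 (chr4:102501109-102501328, plus strand): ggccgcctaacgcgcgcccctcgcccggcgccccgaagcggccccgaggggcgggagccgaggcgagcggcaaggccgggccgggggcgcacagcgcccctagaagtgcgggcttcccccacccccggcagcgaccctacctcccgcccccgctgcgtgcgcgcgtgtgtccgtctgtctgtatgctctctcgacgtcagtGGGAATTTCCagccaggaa
NFKB2 (chr10:102395455-102395692, plus strand): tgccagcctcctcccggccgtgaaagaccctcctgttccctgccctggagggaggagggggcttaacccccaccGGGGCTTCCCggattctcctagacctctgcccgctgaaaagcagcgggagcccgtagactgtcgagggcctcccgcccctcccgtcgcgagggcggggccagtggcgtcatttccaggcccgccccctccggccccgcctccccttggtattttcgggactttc
NFKBIA (chr14:35404750-35404999, minus strand): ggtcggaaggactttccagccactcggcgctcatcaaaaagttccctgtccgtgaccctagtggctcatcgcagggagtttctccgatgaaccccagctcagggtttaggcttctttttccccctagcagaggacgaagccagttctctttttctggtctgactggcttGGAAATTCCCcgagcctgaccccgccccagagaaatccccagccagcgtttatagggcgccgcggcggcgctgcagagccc

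The NFKB1 match lay 49 to 40 bases before the start site, in the window of the first of 2 start sites. Most of that stretch is also annotated as exon sequence of another gene. The NFKB2 stretch lies within the gene, in an intron, before an inner start site, the last of 3. Of the NFKB2 windows not shown, that of the first start site held no match and that of the second held 2. In the NFKB2 window shown, a match lay at 176 to 167 bases before the start site, and another, which reaches into an annotated exon and is therefore not shown in full, at 21 to 12 bases. The NFKBIA match lay 81 to 72 bases before the start site. REL, NFKBIB, TNFAIP3 and BIRC3 held matches as well. Neither of the 2 RELA windows held one.

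By gene length and depth, as depth-scaled fragments per kilobase (FPKM), RELA RNA was the most abundant of the 10 in both groups and RELB or BIRC3 RNA the least. In control cells the order of mean FPKM levels was RELA at 25.1, NFKB2 at 12.2, NFKBIB at 11.1, NFKBIA at 7.94, NFKBIE at 6.27, TNFAIP3 at 3.52, NFKB1 at 2.37, REL at 2.34, BIRC3 at 1.03 and RELB at 0.692. The ranges over the 3 libraries overlapped for the neighbours NFKBIA and NFKBIE, NFKB1 and REL, and BIRC3 and RELB. In hyperoside-treated cells NFKBIA stood second at 14.5 FPKM, followed by NFKBIB at 9.51, NFKBIE at 7.93 and NFKB2 at 7.67, the last pair with overlapping ranges. NFKB1 at 5.05 FPKM came before TNFAIP3 at 4.23, REL at 2.45, RELB at 1.26 and BIRC3 at 0.779. The ranges of RELB and BIRC3 overlapped here too.

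**Figure D1:**
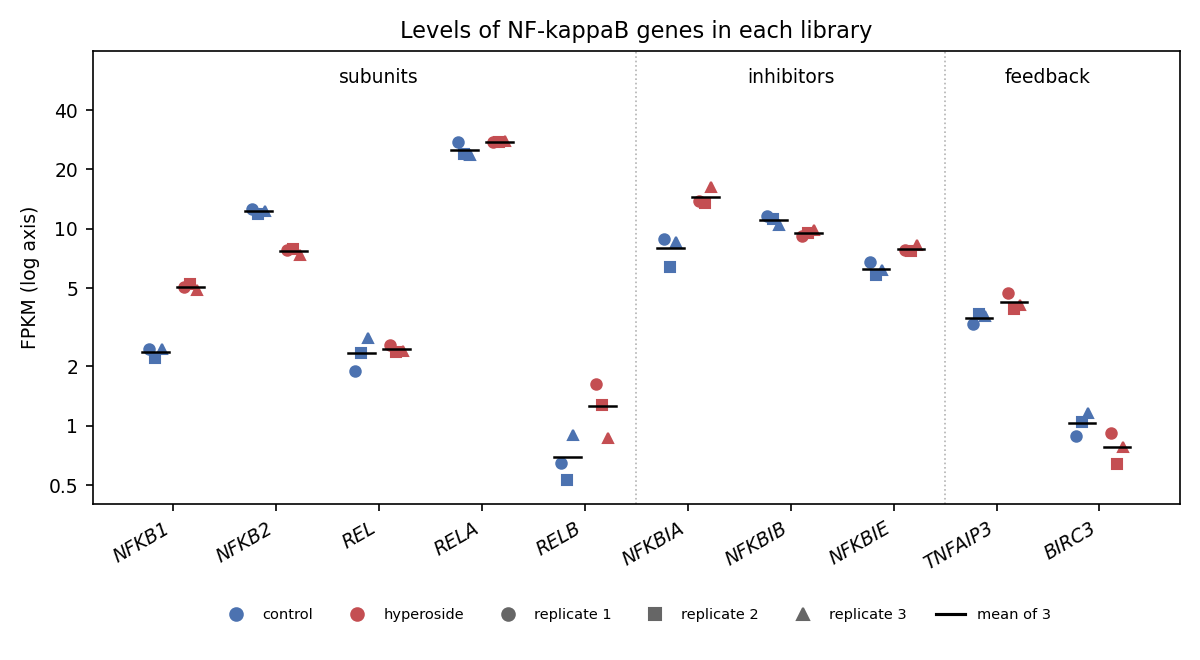
FPKM of the 10 genes in each library on a log axis, with control in blue, hyperoside in red, a marker shape for each replicate and a black line at the mean of 3. NFKB1 and NFKBIA lie higher and NFKB2 lower in the 3 hyperoside libraries than in the 3 control libraries, while the RELA points of the groups overlap, all between 23.8 and 27.7 FPKM.

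With hyperoside, NFKB1 and NFKBIA RNA rose and NFKB2 RNA fell. In edgeR's quasi-likelihood test, with p-values adjusted by Benjamini-Hochberg over all tested genes, 4 of the 10 genes were called higher (NFKB1, NFKBIA, RELB and NFKBIE) and 3 lower (NFKB2, NFKBIB and BIRC3) at an adjusted p under 0.05. REL, RELA and TNFAIP3 were not called. Of all tested genes, 22.1% were called higher, 23.2% lower and 45.3% either way, so a call by itself was common in this comparison. A single member, NFKB1, passed the stricter threshold for differentially expressed genes (DEGs), which adds a fold change above 2 and was passed by 10.2% of tested genes. In depth-normalised counts (CPM, TMM-scaled), 7 of the 10 genes and 54.4% of the 15095 showed no overlap between groups. The median log2 fold change was 0.15 over the 10 genes and 0.00 over all tested genes, and the median of its absolute size was 0.37 against 0.33.

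**Figure D2:**
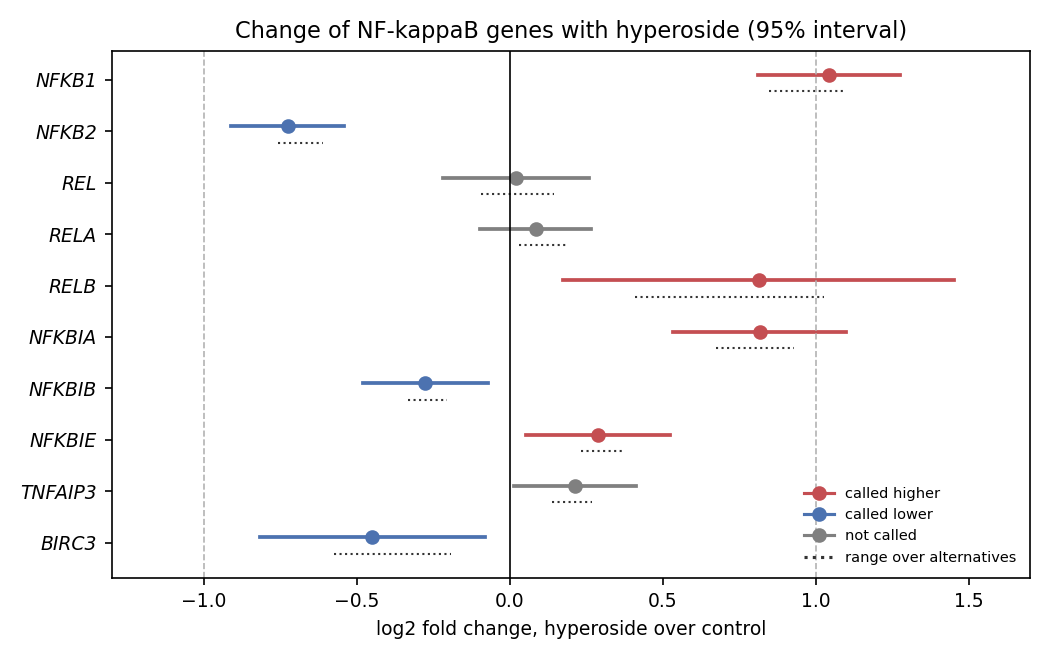
Log2 fold change of each gene, hyperoside over control, from edgeR with its 95% interval (red called higher, blue called lower, grey not called), above a dotted line for the range over the alternatives; dashed lines mark a fold of 2 either way. The interval of NFKB1 lies between 0.81 and 1.27, that of NFKB2 between -0.91 and -0.54, and those of REL and RELA span 0.

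Among the subunits, NFKB1, the p105 and p50 gene (chromosome 4, 102501329 to 102617302, plus strand, GRCh38), had 401, 349 and 391 counts in control replicates 1 to 3 and 807, 841 and 781 in hyperoside replicates 1 to 3. The lowest hyperoside library thus lay far above the highest control library. Normalised levels were 10.8 ± 0.763 CPM in control and 22.2 ± 0.658 CPM with hyperoside (SD, n = 3 each). This was a 2.06-fold rise (95% interval 1.76 to 2.42, log2 fold change 1.04, SE 0.11, edgeR adjusted p = 6.52e-07).

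NFKB2, the p100 and p52 gene (chromosome 10, 102394110 to 102402529, plus strand), moved the other way. Its counts were 1748, 1589 and 1655 in control and 1058, 1072 and 991 with hyperoside, without overlap. The level of 28.5 ± 0.925 CPM with hyperoside was 60.5% of the control level of 47.1 ± 2.37 CPM (SD, n = 3 each; log2 fold change -0.72, SE 0.09, edgeR adjusted p = 3.21e-06). Within a library, NFKB2 FPKM was 5.18 ± 0.191 times NFKB1 FPKM in control and 1.52 ± 0.0270 times with hyperoside (SD, n = 3 each), without overlap.

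RELA encodes p65, the main transactivating partner of p50. Its counts were 2586, 2170 and 2157 in control and 2500, 2543 and 2531 with hyperoside, and control replicate 1 was the highest of the 6 libraries in CPM. The levels of 65.2 ± 7.27 and 69.1 ± 0.983 CPM (SD, n = 3 each) gave a log2 fold change of 0.09 (95% interval -0.10 to 0.27, edgeR adjusted p = 0.449). Without control replicate 1 the log2 fold change was 0.18 and the edgeR adjusted p was 0.0372, so this library decided the call. An annotated gene on the other strand shares exon sequence with RELA, and the sources used here do not say whether counting used strand.

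REL encodes c-Rel, the subunit best known from lymphoid cells. It had 790, 952 and 1131 counts in control and 1052, 978 and 976 with hyperoside, with the hyperoside libraries inside the control range. Its log2 fold change was 0.02 (95% interval -0.22 to 0.26, edgeR adjusted p = 0.898), and the sign turned without control replicate 1 (-0.09) or without hyperoside replicate 1 (-0.01). REL shares exon sequence with another annotated gene on its own strand, so its counts are uncertain to that extent.

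RELB, the partner of p52 in the non-canonical pathway, had the fewest counts of the 10 genes, 54, 43 and 73 in control and 133, 105 and 71 with hyperoside. The groups overlapped, since hyperoside replicate 3 lay below control replicate 3. Levels of 1.60 ± 0.415 and 2.82 ± 0.830 CPM (SD, n = 3 each) gave a log2 fold change of 0.81 with a wide 95% interval of 0.18 to 1.45 (SE 0.30, edgeR adjusted p = 0.0363). The call did not hold without control replicate 1 (edgeR adjusted p = 0.0526), control replicate 2 (0.126), hyperoside replicate 1 (0.195) or hyperoside replicate 2 (0.0795).

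Summed over the 5 subunits, the FPKM level was 40.8 to 45.2 in control and 43.2 to 44.5 with hyperoside, and these ranges overlapped. The make-up of that sum differed: NFKB2 accounted for 27.9% to 29.1% of it in control and 17.0% to 17.7% with hyperoside, and NFKB1 for 5.38% to 5.82% and 11.3% to 11.8%. RELA made up 56.3% to 61.1% in control and 61.6% to 64.2% with hyperoside. These shares are descriptions and were not tested.

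**Figure D3:**
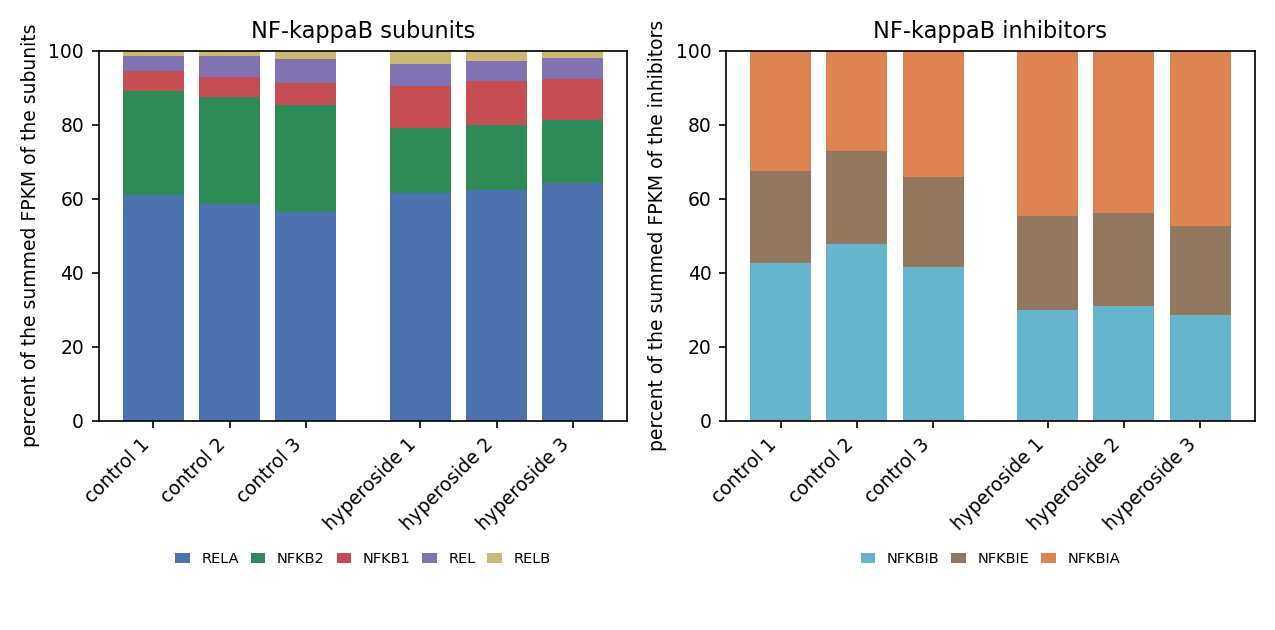
Share of each gene in the summed FPKM of the 5 subunits (left) and of the 3 inhibitors (right), 1 stacked bar per library. The NFKB2 share is smaller and the NFKB1 share larger in each hyperoside library than in each control library, and NFKBIA makes up the largest share of the inhibitors with hyperoside.

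Among the inhibitors, NFKBIA, which encodes IκBα and is itself a rapid NF-κB target (chromosome 14, 35401511 to 35404749, minus strand), had 509, 353 and 476 counts in control and 769, 757 and 906 with hyperoside. All hyperoside libraries lay above all control libraries, and control replicate 2 was the lowest. The level was 12.6 ± 2.31 CPM in control and 22.2 ± 2.49 CPM with hyperoside (SD, n = 3 each). The rise was 1.76-fold (95% interval 1.45 to 2.14, log2 fold change 0.82, SE 0.13, edgeR adjusted p = 8.37e-05).

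NFKBIB encodes IκBβ, an inhibitor of the same family. Its counts of 1086, 1011 and 946 in control and 836, 868 and 893 with hyperoside did not overlap. The log2 fold change was -0.27 (95% interval -0.48 to -0.07, SE 0.10, edgeR adjusted p = 0.0286), from 28.7 ± 2.20 to 23.7 ± 0.975 CPM (SD, n = 3 each). This call did not hold without control replicate 1 (edgeR adjusted p = 0.0678), control replicate 2 (0.0705), hyperoside replicate 1 (0.111), hyperoside replicate 2 (0.0701) or hyperoside replicate 3 (0.0541), nor with upper-quartile scaling (0.0580) or scaling by library totals (0.0591). Exons of SIRT2 on the other strand overlap those of NFKBIB, and SIRT2 itself stood at 44.3 and 45.5 CPM (log2 fold change 0.04, edgeR adjusted p = 0.781). SIRT2 was named for this overlap, after its values were seen.

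NFKBIE, which encodes IκBε, had 586, 488 and 514 counts in control and 656, 655 and 691 with hyperoside. The groups did not overlap in CPM, with levels of 15.0 ± 1.49 and 18.3 ± 0.737 (SD, n = 3 each). The log2 fold change was 0.29 (95% interval 0.05 to 0.52, SE 0.11, edgeR adjusted p = 0.0435). It was not called without control replicate 2 (edgeR adjusted p = 0.166), control replicate 3 (0.121), hyperoside replicate 1 (0.0841), hyperoside replicate 2 (0.0736) or hyperoside replicate 3 (0.121), nor by DESeq2 (0.0601) or without the filter on low counts (0.0563).

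Taking the 3 inhibitors as a sum, the FPKM level was 23.4 to 27.3 in control and 30.7 to 34.3 with hyperoside. Relative to the summed subunits this was 0.573 to 0.605 in control and 0.691 to 0.793 with hyperoside, without overlap. NFKBIA FPKM was 0.568 to 0.819 times NFKBIB FPKM in control and 1.42 to 1.65 times with hyperoside, so the order of these inhibitors was the opposite in the groups. No test was run on these ratios.

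TNFAIP3 encodes A20, a ubiquitin-editing enzyme that shuts off signalling above the IκB kinases. Its counts were 1044, 1133 and 1100 in control and 1449, 1217 and 1261 with hyperoside, and hyperoside replicate 1 was the highest. Although the groups did not overlap, at 30.9 ± 1.25 and 35.8 ± 3.27 CPM (SD, n = 3 each), the log2 fold change of 0.21 (95% interval 0.02 to 0.41) was not called at an edgeR adjusted p of 0.0734. It was called with upper-quartile scaling (edgeR adjusted p = 0.0360), library totals (0.0366) or the filter of at least 100 counts in 3 libraries (0.0451). A gene annotated on the other strand shares exon sequence with TNFAIP3.

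BIRC3 encodes cIAP2, a ubiquitin ligase that is induced by NF-κB and acts in TNF receptor signalling and in the turnover of NIK. It had 227, 260 and 288 counts in control and 229, 162 and 195 with hyperoside. The CPM levels, 7.30 ± 0.806 and 5.35 ± 0.915 (SD, n = 3 each), did not overlap, but control replicate 1 and hyperoside replicate 1 were close at 6.46 and 6.24 CPM. In FPKM these libraries stood in the other order, at 0.884 and 0.915. The log2 fold change was -0.45 (95% interval -0.82 to -0.08, SE 0.18, edgeR adjusted p = 0.0449), and 12 of the 16 alternatives did not call it, among them the fits without control replicate 2 (edgeR adjusted p = 0.0924), control replicate 3 (0.143), hyperoside replicate 2 (0.174) and hyperoside replicate 3 (0.0963).

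The other genes of the pathway were described from 6 lists by role with 123 genes, of which 120 were in the table and 102 were tested. Of these 102, 33 were called higher and 17 lower, which is 49.0% against 45.3% of all tested genes. CD27, TNFSF11 and CD40LG were not analysed here. From each list the called genes with the largest rise and fall are named, with levels given as means ± SD over 3 libraries per group.

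Ligands were few. Of 12 listed, 7 were tested, 3 were called higher and none lower (median log2 fold change 0.29). The share called was 42.9%, against 45.3% of all tested genes. TNF, the archetypal inducer of the canonical pathway, had 1, 0 and 0 counts in control and 2, 1 and 10 with hyperoside, was not tested and was chosen after its values were seen. TNFSF14, which encodes the LTBR ligand LIGHT, rose from 1.88 ± 0.312 to 3.55 ± 0.859 CPM (log2 fold change 0.91, edgeR adjusted p = 0.00882), but not without hyperoside replicate 3 (0.0626). CD70 (0.71) and IL18 (0.29) were called at edgeR adjusted p values of 0.0314 and 0.0315, with overlap between the groups for IL18. Each lost its call when any of 4 libraries was left out: for CD70, control replicate 1 (edgeR adjusted p = 0.0538) or 3 (0.118), or hyperoside replicate 1 (0.0548) or 3 (0.139), and for IL18, control replicate 1 (0.0716) or 2 (0.0731), or hyperoside replicate 1 (0.140) or 3 (0.102).

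Among receptors, 15 of 22 were tested, of which 5 were called higher and 1 lower (median log2 fold change 0.24). As a share of those tested, the receptor calls lay below the 45.3% of all tested genes. TLR1 and TLR6, receptors for bacterial lipopeptides, were called higher with log2 fold changes of 1.39 and 0.59 (edgeR adjusted p = 0.000836 and 0.00175). These genes share exons and closely similar sequence, so reads may be divided between them and the values are uncertain. IL18R1, a subunit of the IL-18 receptor, rose from 8.99 ± 1.10 to 14.7 ± 0.581 CPM (log2 fold change 0.71, edgeR adjusted p = 0.000225). TNFRSF1B, which encodes TNF receptor 2, fell from 50.7 ± 5.73 to 33.8 ± 1.34 CPM (log2 fold change -0.58, edgeR adjusted p = 7.58e-05).

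Kinases and adaptors, which relay signals to the IκB inhibitors, were called in both directions: 5 of 29 tested genes higher and 8 lower (median log2 fold change -0.10). The share called, 44.8%, was close to the 45.3% of all tested genes. MYD88, the adaptor of Toll-like and IL-1 receptors, rose from 32.3 ± 1.86 to 63.9 ± 3.01 CPM (log2 fold change 0.98, edgeR adjusted p = 7.42e-08). IKBKE, a kinase related to the IκB kinases, rose by 1.07 on the log2 scale (edgeR adjusted p = 7.37e-06), and RIPK1, a kinase of the TNF receptor complex, by 0.73 (edgeR adjusted p = 3.97e-06). RBCK1, which encodes the HOIL-1 subunit of the linear ubiquitin ligase, fell by 0.71 on the log2 scale (edgeR adjusted p = 9.50e-06), and TRADD, the adaptor of TNF receptor 1, by 0.63 (edgeR adjusted p = 0.000289). MAP3K14, the NIK gene, had 386, 271 and 323 counts in control and 224, 357 and 319 with hyperoside and was not called (log2 fold change -0.17, edgeR adjusted p = 0.469). It was chosen after its values were seen, as the kinase that acts on p100.

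The other negative regulators gave 3 genes called higher and 3 lower of 12 tested (median log2 fold change -0.02). As a share of those tested, these calls were only slightly above the 45.3% of all tested genes. ZC3H12A, which encodes the RNase regnase-1, rose from 12.1 ± 0.377 to 18.0 ± 1.25 CPM (log2 fold change 0.57, edgeR adjusted p = 0.000463). TNIP1, which encodes a partner of A20, rose by 0.51 on the log2 scale (edgeR adjusted p = 5.10e-05), and CYLD, a deubiquitinase, fell by 0.47 (edgeR adjusted p = 0.00236). OTUD7B (0.23, edgeR adjusted p = 0.0372), RNF11 (-0.31, 0.0137) and OTULIN (-0.29, 0.00467) were also called. OTUD7B was not called without 5 of the 6 libraries, control replicate 2 being the exception (edgeR adjusted p 0.0524 to 0.0981), and RNF11 not without control replicate 3 (0.0754) or hyperoside replicate 2 (0.0707) or 3 (0.0704). RNF11 was not called with library totals either (edgeR adjusted p = 0.0508). With limma-trend on log2(FPKM + 1), OTUD7B, RNF11 and OTULIN were not called (limma-trend adjusted p = 0.0757, 0.0858 and 0.0752). On log2(FPKM + 0.1), OTUD7B (0.0806), RNF11 (0.0777), OTULIN (0.0713) and CYLD (0.0514) were not called.

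Of the 8 other inhibitors and atypical IκB proteins, 1 was called higher and 1 lower (median log2 fold change 0.05). Their share called was 25.0%, against 45.3% of all tested genes. NFKBIZ, an atypical nuclear IκB, had 167, 183 and 188 counts in control and 339, 278 and 204 with hyperoside (log2 fold change 0.56, edgeR adjusted p = 0.0199). It was not called without hyperoside replicate 1 (edgeR adjusted p = 0.146) or 2 (0.0505). NKIRAS1, which encodes a Ras-like protein that binds IκB, fell by 0.48 on the log2 scale (edgeR adjusted p = 0.00256).

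Target genes had the largest share of calls of the 6 lists. Of 31 tested out of 40 listed, 16 were called higher and 4 lower, 64.5% in all against 45.3% of tested genes. The median log2 fold change was 0.45 against 0.00. The lists, this one included, were chosen with earlier results of these data known. CXCL8, a neutrophil chemokine, had 255, 288 and 339 counts in control and 776, 628 and 733 with hyperoside (log2 fold change 1.23, SE 0.13, edgeR adjusted p = 8.58e-07). PTX3, a soluble pattern recognition protein, had 58, 79 and 44 counts in control and 170, 183 and 213 with hyperoside (log2 fold change 1.60, SE 0.25, edgeR adjusted p = 4.56e-05). In neither gene did the groups overlap. PTGS2, the inducible cyclooxygenase gene, had 14, 19 and 23 counts in control and 79, 32 and 61 with hyperoside (log2 fold change 1.57, edgeR adjusted p = 0.00782), and was not called without hyperoside replicate 1 (0.0677).

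The called targets were not all higher. NINJ1, a mediator of membrane rupture, fell by 0.55 on the log2 scale (edgeR adjusted p = 0.00272), and CD69, an activation antigen of leukocytes, by 0.40 (edgeR adjusted p = 0.00221). IL6, a cytokine gene, had 112, 141 and 147 counts in control and 63, 123 and 66 with hyperoside, with overlap (log2 fold change -0.71, edgeR adjusted p = 0.0396), and was not called without control replicate 2 (0.0963) or 3 (0.0967) or hyperoside replicate 1 (0.158) or 3 (0.154). SOD2, the mitochondrial superoxide dismutase gene, was the fourth called lower (-0.26, edgeR adjusted p = 0.00691) and was chosen after its values were seen. Of the genes named from the lists, NKIRAS1, CYLD, IKBKE, RIPK1, TRADD, PTX3 and IL6 share exon sequence with a gene annotated on the other strand and IL18R1, ZC3H12A and TNFRSF1B with one on the same strand.

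**Figure D4:**
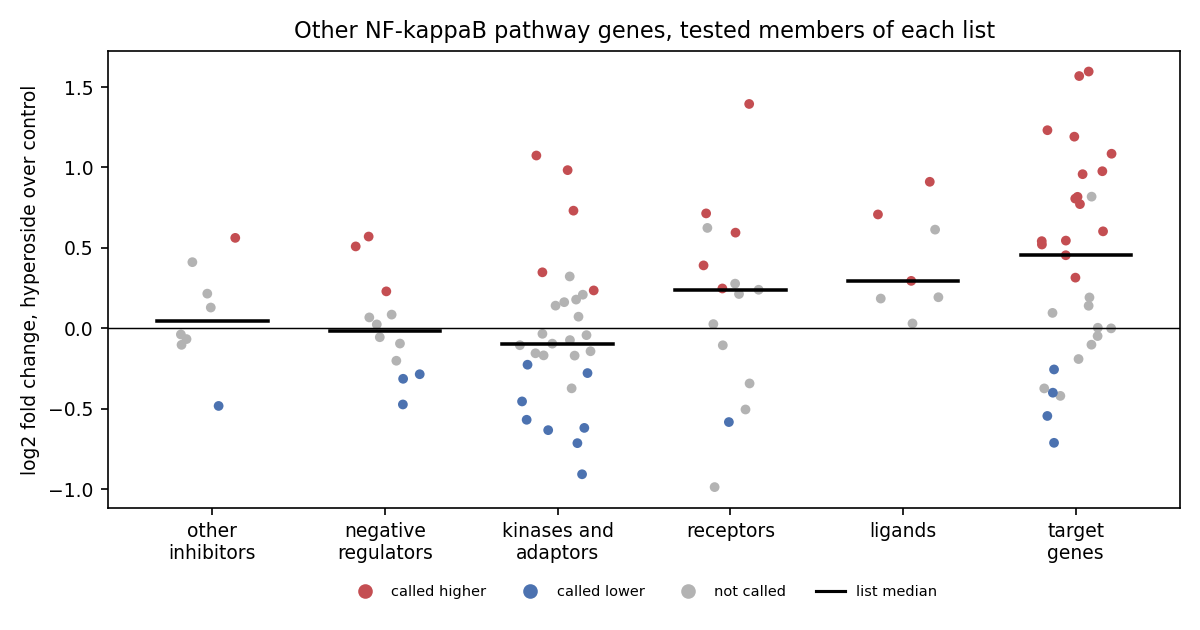
Log2 fold change, hyperoside over control, of the tested genes of the 6 other pathway lists, 1 point per gene (red called higher, blue called lower, grey not called, with horizontal jitter) and a black line at the list median. The line stands at 0.45 for the target genes and at -0.10 for the kinases and adaptors.

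The libraries held between 35613283 and 36754725 counts on genes. All 14 K562 markers were tested, and the erythroid regulator GATA1 stood at 88.0 to 106 FPKM in all libraries. 5 markers were called higher and 4 lower, and their summed FPKM, mostly from globins, was 7834 to 9683 in control and 5845 to 7048 with hyperoside. Of 12 monocyte and macrophage markers, 6 were tested, 4 were called higher and none lower, and their summed FPKM, mostly from CD68 and LYZ, was 122 to 124 in control and 159 to 178 with hyperoside. The defining monocyte gene CD14 had 0 to 7 counts per library. Of 12 lymphocyte markers, 4 were tested and 2 called higher, with a summed FPKM, mostly from CD3D, of 37.0 to 44.3 and 49.5 to 55.6, while CD5 had no count in any library, which allows up to 3 counts in each, and MS4A1 had at most 1. Of 8 fibroblast markers, 6 were tested, 1 was called higher and 2 lower, with a summed FPKM of 1.24 to 1.66 and 1.27 to 1.69, and PDGFRA had no count. Among the called markers, CSF1R had 16, 5 and 6 counts in control and 35, 30 and 34 with hyperoside. CD3G had 25, 9 and 18 in control and 58, 52 and 32 with hyperoside. PDGFRB, called lower, had 21, 25 and 18 in control and 8, 6 and 5 with hyperoside. Each of these passed the filter on low counts only through the group where it was higher, so the filter favoured the direction of its call. The called markers ITGAM, LYZ, CD68 and CD3D did not depend on this, with at least 453 counts in every library. They were called higher, with log2 fold changes of 0.83, 0.53, 0.34 and 0.29 (edgeR adjusted p = 8.15e-06, 3.02e-05, 0.00123 and 0.0249). COL1A1, called lower (-0.99, edgeR adjusted p = 0.00711), and COL3A1, called higher (0.99, 0.0251), also had enough counts in both groups. The markers named singly were chosen after their values were seen. A call by itself was common, at 45.3% of all tested genes, and the marker lists were small. The marker calls were not compared with that share by a test and do not by themselves show a shift of a list. The part of these marker lists in the results was not tested. In bulk RNA, fewer cells of a type and less RNA per cell cannot be told apart.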

How the data were processed

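RNA from 3 control and 3 hyperoside K562 libraries was sequenced on an Illumina HiSeq instrument. Groups were taken from the labels and the dose from the study's results. The authors deposited raw counts per gene and FPKM values, which are those counts divided by gene length and library total. The submitters' processing notes name fastp, HISAT2, HTSeq and hg38; their roles, versions, the annotation and the use of strand are not given in the sources used here. The members and the gene lists were chosen with earlier results of these data known.

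The counts went into edgeR 4.0.16 (R 4.3.3), with filterByExpr (minimum count 10, minimum total 15), TMM scaling (factors 0.957 to 1.03) and the quasi-likelihood test with condition as the only term, with p-values adjusted by the Benjamini-Hochberg method over 15095 genes. The SE is the log2 fold change divided by the square root of F. The script was tested on simulated data. All named genes but those marked, the cell type markers and the genes not analysed here were the members, or, per list, up to 3 called genes in each direction with at least 10 normalised counts on average. A gene that this rule names is not reported here. Alternatives used edgeR, DESeq2 1.42.0 and limma 3.58.1. Replicates differed by more than sampling noise (chi-square per degree of freedom 6.34 to 23.1). Totals of 35613283 to 36754725 counts limit precision mainly for RELB, and the limit for a count of 0 covers counting error only. Tables and plots were made in Python 3.11.15 with pandas 2.3.3, numpy 2.4.6 and matplotlib 3.10.9. Gene positions were those of GENCODE (GRCh38), and promoter windows those of RefSeq (GRCh38.p14).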

Additional observations from a re-analysis of the deposited data

How the results depend on the processing

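Over the 16 alternatives, NFKB1 (log2 fold change 0.85 to 1.09), NFKB2 (-0.76 to -0.61) and NFKBIA (0.67 to 0.93) kept their direction and call, and the other 4 called members lost theirs under at least 1. The filter of at least 100 counts in 3 libraries removed RELB, left 521 DEGs upregulated and 298 downregulated (970 and 567 in the reported comparison) and tested fewer genes; limma-trend on log2(FPKM + 1) gave 208 and 136, and this scale understates changes of low genes. Members called lower were 1 in place of 3 with upper-quartile scaling and with library totals. Leaving out 1 library gave 2 to 4 members called higher and 1 to 2 called lower. REL changed sign without control replicate 1 (-0.0946) and without hyperoside replicate 1 (-0.0120), and reached 0.145 without control replicate 3. Pathway list genes called lower numbered 11, in place of 17, with log2(FPKM + 0.1). The level order was the same with means on log2(FPKM + 1). The cause of these shifts was not tested.

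With a replicate block, 2 members were called higher and 1 lower, and 6129 genes in all in place of 6841. Deviations from the group means correlated at -0.0810, -0.0327 and -0.0342 for equal numbers 1, 2 and 3, and at -0.0271 to 0.0641 for unequal numbers. No shared deviation of equally numbered libraries was thus seen. The labels do not say whether equal numbers mean a shared culture or handling, and these correlations cannot settle it.

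Depth limited RELB most, at 43 to 133 counts per library, and RNA levels say nothing of protein.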
